A study of Oryza sativa Japonica Group with 36 samples.

Results

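The plant vacuole holds proteases that break down leaf protein during senescence, and the amino acids released are exported to the growing grain. Many of these proteases are made as inactive precursors. Vacuolar processing enzymes (VPEs), cysteine proteases of the legumain family that cut after asparagine, convert vacuolar precursors into their mature forms. Transcripts of 7 genes of this system were followed in rice leaves, among the 38026 genes of the deposited table. The 7 genes were chosen by their identifiers, with earlier results of these data known. The first are the oryzains, papain-like cysteine proteases first described in rice seeds. They are oryzain alpha (OS04G0650000), oryzain beta (OS04G0670200), and oryzain gamma (OS09G0442300). The VPEs are VPE1 (OS04G0537900), VPE2 (OS01G0559600), and VPE3 (OS02G0644000), and the last member is the aspartic protease oryzasin (OS05G0567100).

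The flag leaf (FL), the uppermost leaf of the rice plant, and the second leaf (SL) below it were taken from field-grown plants of the japonica cultivar Dongjin. Sampling was done during grain-filling at 6 time points given in days after heading (DAH), from 4 DAH through 12, 20, 28, and 36 DAH to 44 DAH. With 3 replicates for each of the 12 combinations of leaf and time point, 36 libraries of mRNA were sequenced. No treatment was applied, the cultivar was the same throughout, and each replicate pooled the middle parts of several leaves, so that the p-values measure the spread between pools. Values are given as CPM, the reads of a gene scaled to the size of the library. Differences are on the scale of quantile-normalized log2(CPM + 1), with their standard error (SE) and the adjusted p of limma, and a gene was called when the adjusted p was below 0.05. Since CPM does not account for transcript length, levels were compared within a gene and not between genes. In bulk leaf RNA, a change in the share of a cell type and a change of the transcript within its cells cannot be told apart.

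The libraries held 5713546 to 29789199 reads on genes, and 3 reads were worth 0.106 to 0.511 CPM. All 7 members passed the filter on low values, as did 22057 genes in total, and the fewest reads of any member in any library were the 62 of oryzain beta. Among 3 markers of green leaf, RCA, encoding Rubisco activase, had 5020 to 15591 CPM, and RBCS, encoding the small subunit of Rubisco, had 539 to 1639 CPM. The third, CAB2R, encoding a light-harvesting protein, ran from 1161 CPM down to 11.6 CPM, with a mean log2 change after 4 DAH of -3.70 in FL and -3.73 in SL. The other markers of green leaf did not share this steep fall. The mean of RCA was 10794 CPM at 4 DAH and 7551 CPM at 44 DAH in FL, and 12753 and 7341 CPM in SL. The mean of RBCS at these time points was 1313 and 1111 CPM in FL, and 774 and 1023 CPM in SL. SGR and NYC1, which act in chlorophyll breakdown, were higher after 4 DAH than at 4 DAH, on average by 1.69 and 0.84 in FL and by 1.79 and 0.78 in SL. GLUA1, encoding a storage glutelin of the grain, had 13.9 CPM in FL and 22.3 CPM in SL in the 20 DAH libraries of replicate 2, and at most 0.54 CPM in all other libraries. The related glutelin gene GLUA2 was detected in every library at 6.04 to 29.2 CPM.

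The oryzains were higher after 4 DAH in both leaves, with the largest change in oryzain gamma. VPE2 increased in both leaves, whereas VPE1 and VPE3 decreased in both. Oryzasin was called in SL, with changes of at most 1.4-fold, and did not pass the test in FL. In the F-test of limma over the 6 time points, 6 of 7 members were called in FL (78.9% of all genes tested) and 7 of 7 in SL (77.8%). Since most genes were called in this test, the counts are near the background and the sizes of the changes are described member by member.

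**Figure D1:**
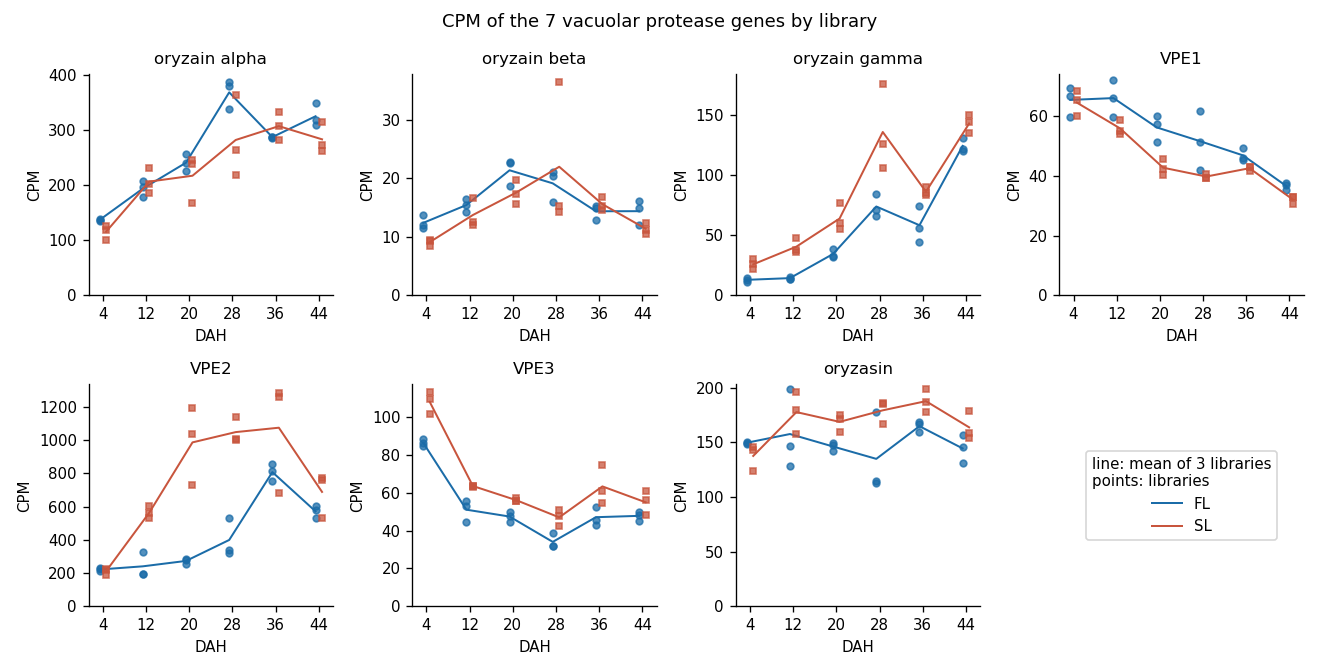
CPM of each member (vertical axis from 0, with its own scale for each gene) against days after heading. Each of the 36 libraries is a point (FL circles, SL squares) and lines join the means of 3 libraries. VPE2 was at 732 to 1192 CPM in SL at 20 DAH, above all 3 FL libraries of 256 to 282 CPM.

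Oryzain gamma, the rice relative of the barley vacuolar protease aleurain, had 14.5, 12.9, and 11.6 CPM in the 3 FL libraries at 4 DAH and 15.6, 13.8, and 13.8 CPM at 12 DAH. FL then had 33.2, 32.1, and 38.2 CPM at 20 DAH and 71.4, 66.2, and 84.3 CPM at 28 DAH. It had 44.8, 56.2, and 74.1 CPM at 36 DAH and 120.2, 122, and 131 CPM at 44 DAH. Every FL library of 44 DAH was thus above every FL library taken earlier. The SL libraries started at 21.7, 25.8, and 30.1 CPM at 4 DAH, followed by 36.04, 48.1, and 37.7 CPM at 12 DAH and 76.4, 55.4, and 59.9 CPM at 20 DAH. At the later time points SL had 176, 106, and 126 CPM at 28 DAH, 83.2, 90.1, and 85.2 CPM at 36 DAH, and 150.1, 144, and 135 CPM at 44 DAH. At all 6 time points, the lowest SL library was above the highest FL library of the same day.

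From 4 to 44 DAH, oryzain gamma rose by 3.21 in FL (SE 0.16, adjusted p = 5.67e-16), which is 9.23-fold. The rise in SL was 2.51 (SE 0.16, adjusted p = 1.35e-13), or 5.72-fold. Between 4 and 12 DAH, the change of 0.21 in FL did not pass the test (adjusted p = 0.355), and that of 0.63 in SL did (adjusted p = 0.00277), although not without replicate 2 of all groups (adjusted p = 0.0859). The rise was interrupted at 36 DAH: averaged over both leaves, oryzain gamma fell by 0.39 from 28 to 36 DAH (SE 0.11, adjusted p = 0.00437) and rose by 0.85 from 36 to 44 DAH (SE 0.11, adjusted p = 1.62e-07). The fall was not called without replicate 1 of all groups, with a value of -0.18 (adjusted p = 0.195). Among all genes, 57.9% changed in the step into 36 DAH and 62.2% in the step out of it, whereas 43.7%, 28.7%, and 33.7% did in the steps to 12, 20, and 28 DAH. The marker CAB2R rose by 2.93 into 36 DAH and fell by 1.75 after it, and the part of this shift in the values of oryzain gamma was not tested.

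Oryzain alpha changed in the same direction with a smaller size. Its FL libraries had 136, 139, and 136 CPM at 4 DAH, 388, 379, and 337 CPM at 28 DAH, and 317, 308, and 349 CPM at 44 DAH. The SL libraries of oryzain alpha had 100.9, 119, and 127 CPM at 4 DAH, 363, 263, and 219 CPM at 28 DAH, and 314, 262, and 272 CPM at 44 DAH. In each leaf, the libraries of 28 and 44 DAH were above those of 4 DAH without overlap. The change from 4 to 44 DAH was 1.35 in FL (SE 0.15, adjusted p = 1.29e-08) and 1.33 in SL (SE 0.15, adjusted p = 1.88e-08), corresponding to 2.54-fold and 2.51-fold. Oryzain alpha was called at all 5 later time points in each leaf. The smallest of these changes was 0.48 in FL at 12 DAH (adjusted p = 0.0175) and the largest 1.56 in FL at 28 DAH (adjusted p = 9.56e-10). The smallest was not called when replicate 2 (adjusted p = 0.208) or replicate 3 (adjusted p = 0.116) of all groups was left out.

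Oryzain beta was highest in the middle of grain-filling and returned toward its first level. In FL, its mean was 12.4 ± 1.17 CPM (SD, n = 3) at 4 DAH, 21.4 ± 2.32 CPM at 20 DAH, and 14.4 ± 2.12 CPM at 44 DAH. In SL, the mean of oryzain beta was 9.11 ± 0.516 CPM at 4 DAH, 17.6 ± 2.07 CPM at 20 DAH, and 11.4 ± 0.938 CPM at 44 DAH. From 4 to 20 DAH it rose by 0.80 in FL (SE 0.20, adjusted p = 0.00149) and by 1.00 in SL (SE 0.20, adjusted p = 0.000148). The difference between 44 and 4 DAH did not pass the test in FL (0.30, adjusted p = 0.193) or in SL (0.40, adjusted p = 0.0835). The F-test of oryzain beta over time in FL (adjusted p = 0.00733) was not called without replicate 2 (adjusted p = 0.0619) or replicate 3 (adjusted p = 0.0643) of all groups.

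The SL libraries of oryzain beta at 28 DAH were uneven, with 36.5 CPM in replicate 1 and 15.2 and 14.3 CPM in the others. That library was also the highest of its group for oryzain alpha and oryzain gamma. Without it, the differences of oryzain beta between 44 and 4 DAH were called in FL (adjusted p = 0.0496) and in SL (adjusted p = 0.0103). Its fall of 0.35 from 28 to 36 DAH, averaged over both leaves (adjusted p = 0.034), was -0.15 without that library and was then not called (adjusted p = 0.207).

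VPE2 increased in both leaves, with SL ahead of FL. The SL libraries had 188, 227, and 219 CPM at 4 DAH, 531, 601, and 560.3 CPM at 12 DAH, and 1038, 732, and 1192 CPM at 20 DAH. SL then had 1139, 1009.8, and 999 CPM at 28 DAH, 1282, 1260.4, and 685 CPM at 36 DAH, and 772, 532, and 763 CPM at 44 DAH. Every SL library after 4 DAH was above the SL libraries of 4 DAH. The FL libraries had 229, 223, and 213 CPM at 4 DAH, 328, 197, and 197 CPM at 12 DAH, and 281, 256, and 282 CPM at 20 DAH. FL then had 342, 322, and 534 CPM at 28 DAH, 856, 753, and 815 CPM at 36 DAH, and 606, 532, and 577 CPM at 44 DAH. In FL, the values at 12 DAH were spread around those of 4 DAH, and from 20 DAH all libraries were above them.

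Relative to 4 DAH, VPE2 was called at all 5 later time points in SL. Its change was 1.26 at 12 DAH (SE 0.21, adjusted p = 2.43e-05) and reached 2.33 at 28 DAH (SE 0.21, adjusted p = 1.69e-10), which is 5.04-fold. In FL, the changes of 0.08 at 12 DAH (adjusted p = 0.818) and 0.43 at 20 DAH (adjusted p = 0.0914) did not pass the test. FL was called at 28 DAH, with a change of 0.99 (adjusted p = 0.000175). It reached 1.94 at 36 DAH (adjusted p = 2.23e-08), or 3.85-fold, and was 1.48 at 44 DAH (adjusted p = 4.87e-07). Averaged over both leaves, VPE2 fell by 0.47 from 36 to 44 DAH (adjusted p = 0.00666), which was not called without replicate 1 (adjusted p = 0.0874) or replicate 2 (adjusted p = 0.0965) of all groups.

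VPE3 changed in the opposite direction. It had 86.2, 88.4, and 84.4 CPM in FL and 109, 101.5, and 113 CPM in SL at 4 DAH, above all later libraries of the same leaf. At 12 DAH, VPE3 had 55.8, 52.9, and 44.3 CPM in FL and 63.6, 63.8, and 63.2 CPM in SL. At 28 DAH, FL had 31.6, 31.8, and 38.6 CPM and SL had 47.7, 42.3, and 50.8 CPM, the lowest group means of each leaf. From 4 to 28 DAH, VPE3 fell by 1.26 in FL (SE 0.10, adjusted p = 8.88e-12) and by 1.31 in SL (SE 0.10, adjusted p = 4.96e-12). It rose by 0.52 into 36 DAH, averaged over both leaves (SE 0.07, adjusted p = 1.85e-07). At 44 DAH its log2 change from 4 DAH was -0.80 in FL (adjusted p = 4.73e-08) and -1.01 in SL (adjusted p = 5.93e-10).

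VPE1, known from rice endosperm for cutting the precursor of glutelin, declined more gradually. At 4 DAH it had 60.0, 67.0, and 69.7 CPM in FL and 60.0, 65.6, and 68.4 CPM in SL, and the leaves overlapped. At 44 DAH, VPE1 had 35.3, 37.2, and 37.6 CPM in FL and 30.5, 33.04, and 33.1 CPM in SL, below every library of 4 DAH. The decrease was 0.76 in FL, given as a log2 change of -0.76 (SE 0.08, adjusted p = 6.59e-09), and the change in SL was -1.01 (SE 0.08, adjusted p = 3.19e-11). The decrease passed the test at all 5 later time points in SL and at 28, 36, and 44 DAH in FL. In SL the change of -0.26 at 12 DAH (adjusted p = 0.0158) was lost under 4 alternatives: without quantile normalization (adjusted p = 0.122), with edgeR and TMM (0.0511), and without replicate 2 (0.207) or 3 (0.1) of all groups. In FL the change of -0.31 at 28 DAH (adjusted p = 0.00266) was lost without replicate 1 (adjusted p = 0.0791).

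Oryzasin, which carries the insert typical of plant aspartic proteases, was within 113 to 199 CPM over the 36 libraries. In SL it was higher than at 4 DAH by 0.29 at 28 DAH (SE 0.12, adjusted p = 0.0369) and by 0.48 at 36 DAH (SE 0.12, adjusted p = 0.0017), or 1.22-fold and 1.4-fold. The F-test over time had an adjusted p of 0.0177 in SL and 0.133 in FL. When the replicate number entered as a block, the SL change at 28 DAH was not called (adjusted p = 0.0506). It was also lost without replicate 1 (adjusted p = 0.271) or replicate 3 (adjusted p = 0.115) of all groups. The SL change at 36 DAH was 0.37 without replicate 1 of all groups and was then not called (adjusted p = 0.08). The FL libraries of oryzasin at 28 DAH had 114, 113, and 178 CPM. Without the third of them, the F-test in FL was called (adjusted p = 0.00845) and the change from 4 to 28 DAH was -0.28 (adjusted p = 0.0373). The SL change at 28 DAH had an adjusted p of 0.0976 without replicate 1 of that group.

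Over the 7 members and 5 later time points, 22 of 35 changes from 4 DAH were called in FL, beside 43.6% of all gene and time point combinations. There were 14 higher and 8 lower, beside 21% and 22.6% of all combinations. In SL, 31 of 35 were called (44.1% of all), 21 of them higher (23.1%) and 10 lower (21%). Between successive time points, averaged over both leaves, 23 of 35 changes were called (45.2% of all). The members moved in both directions, and the median of their changes was lowest in FL at 12 DAH (0.077) and highest there at 28 DAH (0.67). In SL this median was lowest at 44 DAH (0.40) and highest at 28 DAH (1.13). The medians of all genes tested ran from -0.0096 to 0.032 over these contrasts, where quantile normalization keeps them near 0. The study's criteria for senescence-associated genes (SAGs) include a 2-fold change. The study does not say that this change is taken from smoothed profiles, as was done here. Each leaf was compared here with its own 4 DAH. In its displayed profiles the study took 4 DAH in FL as the start for both leaves, which was not tried here. By these criteria, 5 members were SAGs in at least 1 leaf, namely the 3 oryzains, VPE2, and VPE3. Oryzain beta passed in SL only, with a largest smoothed log2 change of 1.11. Among all 38026 genes of the table, of which 33063 had reads, 17.5% were SAGs. VPE1 had a largest smoothed log2 change of 0.76 in FL and 0.96 in SL and did not reach the criterion. Without smoothing, its change in SL from 4 DAH of SL was -1.01 at 44 DAH, or 2.01-fold. With that start, the outcome for VPE1 in SL depended on the smoothing.

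**Figure D2:**
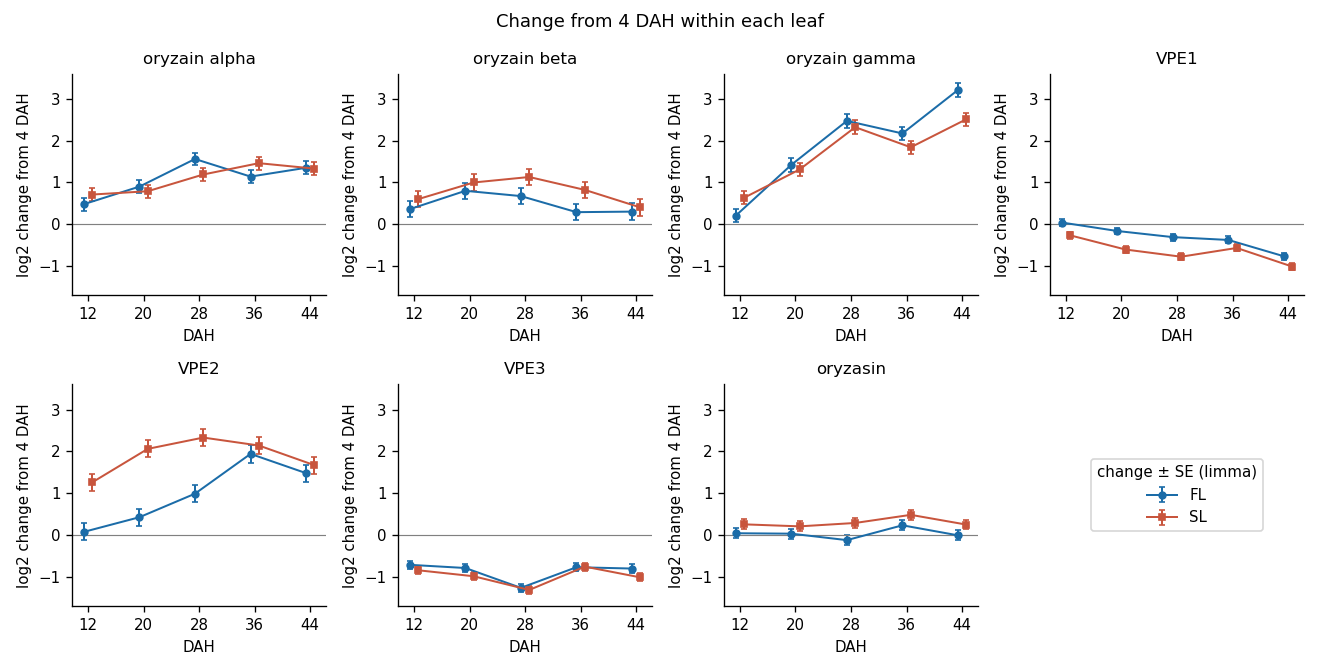
Log2 change from 4 DAH (vertical axis, the same scale in all panels) at the 5 later time points in FL (circles) and SL (squares), with bars of 1 SE from limma. Oryzain gamma ended at 3.21 in FL and 2.51 in SL, VPE1 and VPE3 were below 0 in both leaves at 44 DAH, and VPE2 was at 1.26 in SL and 0.08 in FL at 12 DAH.

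FL and SL were next compared to find which members differed between leaves of different position. Averaged over the 6 time points, 5 of 7 members differed, where 48.8% of all genes did. VPE2 had the largest difference, -0.89 for FL minus SL (SE 0.08, adjusted p = 1.56e-09), or 1.85-fold higher in SL. Oryzain gamma followed with -0.84 (SE 0.07, adjusted p = 5.25e-11), or 1.78-fold. VPE3 had a difference of -0.35 (SE 0.04, adjusted p = 3.17e-08) and oryzasin of -0.24 (SE 0.05, adjusted p = 0.000159), both lower in FL. VPE1 was the member higher in FL, by 0.20 (SE 0.03, adjusted p = 2.43e-05).

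Oryzain alpha (0.10, SE 0.06, adjusted p = 0.171) and oryzain beta (0.18, SE 0.08, adjusted p = 0.0654) did not pass the test on average. The call of oryzain beta depended on single libraries and on the design. It was called without replicate 1 of SL at 28 DAH (0.25, adjusted p = 0.000546), without replicate 3 of FL at 28 DAH (0.20, adjusted p = 0.0377), and in the fit with a replicate block (0.18, adjusted p = 0.0292). Oryzain alpha was called without replicate 1 of SL at 28 DAH (0.14, adjusted p = 0.0405), without quantile normalization (0.14, adjusted p = 0.0409), and with edgeR and RLE scaling (0.14, adjusted p = 0.0434).

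**Figure D3:**
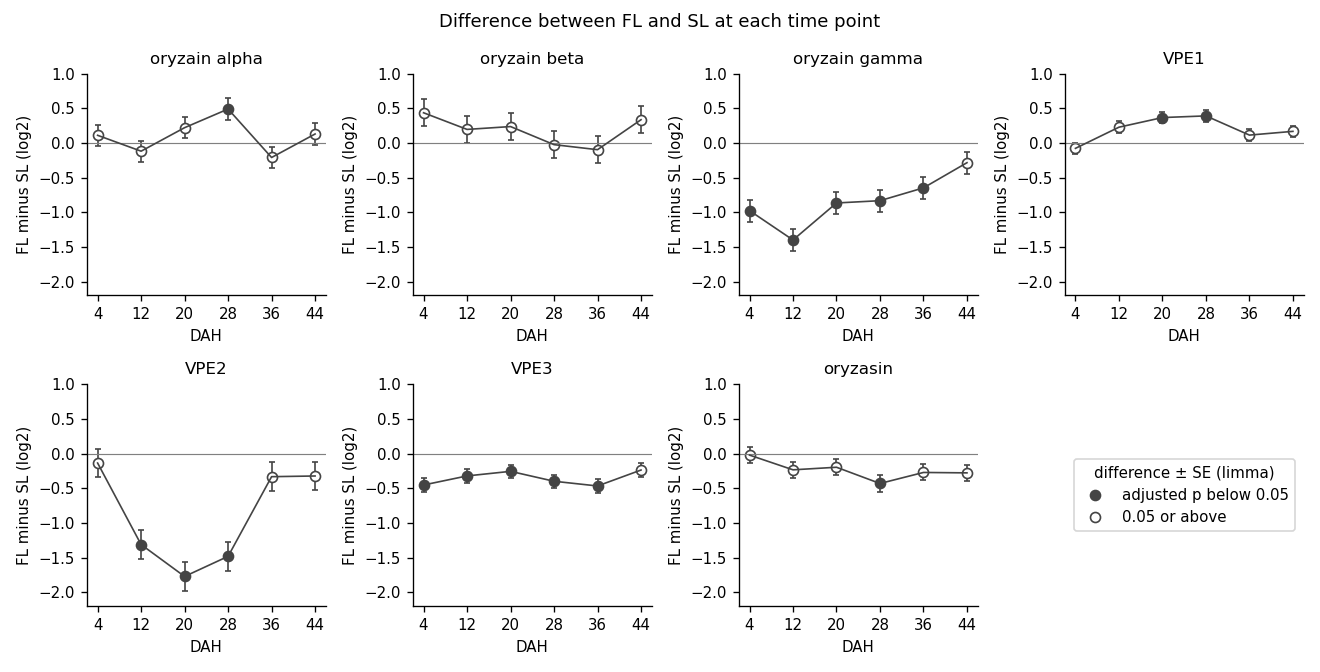
FL minus SL on the log2 scale (vertical axis, the same in all panels) against days after heading, with bars of 1 SE from limma. Filled points have an adjusted p below 0.05. The difference of VPE2 was -1.77 at 20 DAH and -0.32 at 44 DAH, where no member has a filled point.

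Most calls between the leaves fell in the middle of grain-filling. At 4 DAH, 2 of 7 members differed (14.1% of all genes), and 3 members did at 12 DAH (13.5%). At 20 DAH, 4 members differed (30.4%), and at 28 DAH 6 members did (23.7%). At 36 DAH, 2 members differed (10.9%). At 44 DAH, limma called 0 of 7 members (3.8% of all genes), and 2 had an unadjusted p below 0.05, VPE3 and oryzasin. edgeR on the recovered reads also called 0 members at 44 DAH, with an unadjusted p below 0.05 for 0 members with TMM and for 1, VPE1, with RLE scaling. In total 17 of 42 differences were called (16.1% of all combinations), 3 higher (7.71%) and 14 lower in FL (8.37%). Without the 20 DAH libraries of replicate 2, which held the glutelin reads, 16 were called. In CPM, the libraries of the leaves did not overlap at 4 DAH for 3 members with FL above and 2 with SL above, beside 40.2% of all genes. Oryzasin was among those with FL above, although its quantile-normalized difference at 4 DAH was -0.02 (adjusted p = 0.945). There was no overlap for 5 members at 20 DAH, beside 54.3% of all genes, and for 2 members at 44 DAH, beside 19.9%.

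VPE2 differed between the leaves from 12 to 28 DAH. At 4 DAH its libraries overlapped, and the difference of -0.13 (SE 0.21, adjusted p = 0.747) changed its sign with the scaling. At 12, 20, and 28 DAH the highest FL library was below the lowest SL library. The difference was -1.31 at 12 DAH (adjusted p = 0.00012), or 2.48-fold. It was -1.77 at 20 DAH (adjusted p = 8.67e-07), or 3.4-fold, and -1.48 at 28 DAH (adjusted p = 8.09e-06), or 2.79-fold. At 36 DAH the difference was -0.33 (adjusted p = 0.274), with 1 SL library of 685 CPM below all FL libraries and the others above them. At 44 DAH the difference was -0.32 (adjusted p = 0.376).

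Oryzain gamma was lower in FL already at 4 DAH, by a difference of -0.98 (SE 0.16, adjusted p = 0.000111). The difference was widest at 12 DAH, at -1.40 (adjusted p = 1.94e-06), and narrowed to -0.65 at 36 DAH (adjusted p = 0.0115) and -0.285 at 44 DAH (adjusted p = 0.307). The call at 36 DAH was lost without replicate 1 (adjusted p = 0.19) or replicate 2 (adjusted p = 0.0566) of all groups. At 44 DAH the SL libraries were still above those of FL, by 135 CPM for the lowest SL library against 131 CPM for the highest of FL.

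VPE3 was lower in FL at each of the first 5 time points, with differences from -0.25 at 20 DAH (adjusted p = 0.0473) to -0.46 at 36 DAH (adjusted p = 0.00419). The value at 20 DAH was not called without its libraries of replicate 2 (adjusted p = 0.201) or without replicate 1 of SL at 28 DAH (adjusted p = 0.0522). That of -0.32 at 12 DAH (adjusted p = 0.0277) was lost without quantile normalization (0.0515). It was also lost without replicate 2 (0.209) or 3 (0.223) of all groups. Without replicate 1 of all groups, none of these 5 differences was called, with adjusted p from 0.0584 at 4 DAH to 0.184 at 36 DAH, and the values ran from -0.26 to -0.45. VPE1 was higher in FL by 0.37 at 20 DAH (adjusted p = 0.00153) and by 0.39 at 28 DAH (adjusted p = 0.00106). Its difference of 0.23 at 12 DAH (adjusted p = 0.0666) was called without replicate 3 of FL at 28 DAH (adjusted p = 0.0434).

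Oryzain alpha was higher in FL at 28 DAH by 0.49 (SE 0.15, adjusted p = 0.0197), with the SL library of 363 CPM inside the FL range and the other SL libraries below it. Without replicate 2 of all groups this difference was 0.35 (adjusted p = 0.324). Oryzasin was lower in FL at 28 DAH, with a difference of -0.43 (adjusted p = 0.00767), although its FL library of 178 CPM was within the SL range. This difference was not called without replicate 1 (adjusted p = 0.164) or replicate 2 (adjusted p = 0.0933) of all groups. Oryzain beta was not called at any time point. Its difference of 0.43 at 4 DAH (adjusted p = 0.152), where FL was above SL without overlap, was called without replicate 1 of SL at 28 DAH (adjusted p = 0.0246).

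Whether the course over time differed between the leaves was tested by the interaction of leaf and time. The interaction was called for 3 of 7 members, where it was called for 20.2% of all genes. VPE2 had an adjusted p of 0.000344, oryzain gamma of 0.014, and VPE1 of 0.0303. The change of VPE2 from 4 DAH was smaller in FL than in SL, with differences of -1.18 at 12 DAH (SE 0.29, adjusted p = 0.0454), -1.63 at 20 DAH (adjusted p = 0.000863), and -1.35 at 28 DAH (adjusted p = 0.00257). The value at 12 DAH was lost with a replicate block (adjusted p = 0.0508), a pseudocount of 0.1 (0.0503), no filter (0.0689), and without replicate 1 (0.17), 2 (0.633), or 3 (0.11) of all groups. The values at 20 DAH (adjusted p = 0.0584) and 28 DAH (adjusted p = 0.144) were lost without replicate 1. At 36 DAH (-0.20, adjusted p = 0.76) and 44 DAH (-0.19, adjusted p = 0.791) the change of VPE2 did not differ past the threshold.

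The decline of VPE1 was smaller in FL by 0.44 at 20 DAH (SE 0.12, adjusted p = 0.0149) and by 0.47 at 28 DAH (adjusted p = 0.00804). Both were lost without quantile normalization (adjusted p = 0.0846 and 0.114) and without any 1 replicate of all groups (adjusted p from 0.0778 to 0.185 at 20 DAH and from 0.0619 to 0.166 at 28 DAH). For oryzain gamma no single time point passed the test, and the values ran from -0.43 at 12 DAH (adjusted p = 0.372) to 0.69 at 44 DAH (adjusted p = 0.0974). Oryzain alpha had an adjusted p of 0.125 in the interaction test. It was called without replicate 1 of SL at 28 DAH (adjusted p = 0.0199) and without replicate 3 of FL at 28 DAH (adjusted p = 0.0347).

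The ratio of a pair of genes within a library does not depend on the scaling between libraries. Its size depends on transcript lengths, and only its change is read here. The ratio of VPE2 to VPE3 had a median of 2.52 in FL (range 2.52 to 2.65) and 1.94 in SL (range 1.72 to 2.24) at 4 DAH. At 20 DAH it was 5.78 in FL (range 5.63 to 5.90) and 18.2 in SL (range 13.2 to 21.5). At 36 DAH the ratio of VPE2 to VPE3 was 17.6 in FL (range 16.3 to 17.8) and 17.2 in SL (range 12.6 to 20.6). The leaves were thus separate at 4 DAH, with FL above SL, separate at 12, 20, and 28 DAH with SL above FL, and overlapping at 36 and 44 DAH. The ratio of oryzain gamma to oryzain alpha was 0.0934 in FL and 0.217 in SL at 4 DAH. At 44 DAH it was 0.379 in FL, against 0.495 in SL, and the leaves did not overlap at either of these time points.

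**Figure D4:**
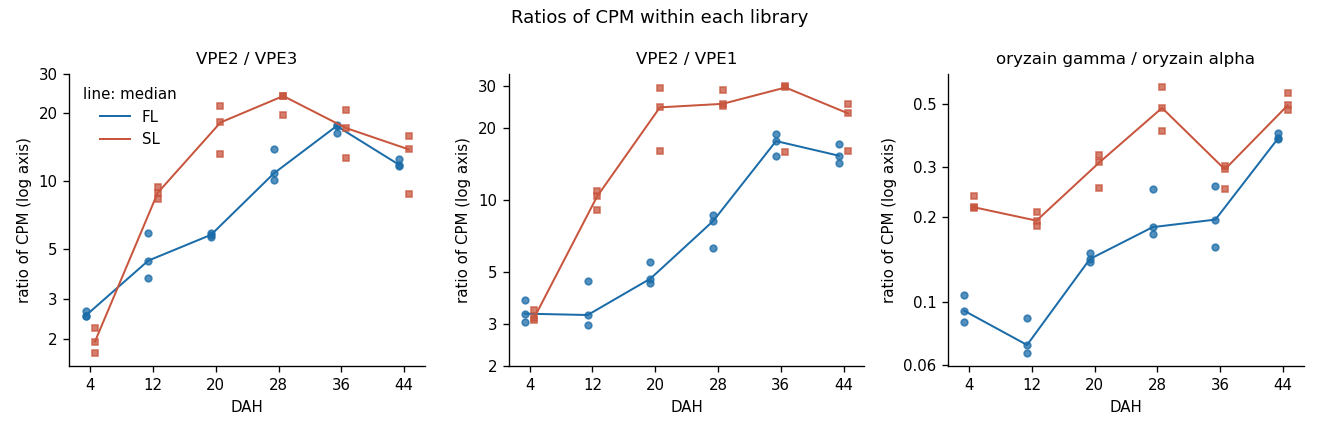
Ratio of the CPM of a pair of genes in the same library (vertical axis, log scale) against days after heading, with each library as a point (FL circles, SL squares) and the median of 3 libraries as a line. The ratio of VPE2 to VPE3 was 18.2 in SL and 5.78 in FL at 20 DAH, and 17.2 in SL and 17.6 in FL at 36 DAH.

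When the 12 group means of a member were placed in order, most neighbours overlapped in their libraries. Oryzain alpha ran from 368 CPM in FL at 28 DAH to 116 CPM in SL at 4 DAH, with overlap in 9 of 11 neighbouring pairs. Oryzain beta ran from 22 CPM in SL at 28 DAH to 9.11 CPM in SL at 4 DAH, with overlap in 10 pairs. Oryzain gamma ran from 143 CPM in SL at 44 DAH to 12.99 CPM in FL at 4 DAH, with overlap in 8 pairs. The pairs that did not overlap set apart FL at 44 DAH from SL at 36 DAH, FL at 20 DAH from SL at 4 DAH, and SL at 4 DAH from FL at 12 DAH. VPE1 ran from 66.2 CPM in FL at 12 DAH to 32.2 CPM in SL at 44 DAH, and VPE3 from 108 CPM in SL at 4 DAH to 34 CPM in FL at 28 DAH, each with overlap in 8 pairs. VPE2 ran from 1076 CPM in SL at 36 DAH to 212 CPM in SL at 4 DAH, with overlap in 10 pairs. Oryzasin ran from 188 CPM in SL at 36 DAH to 135 CPM in FL at 28 DAH, and all 11 pairs overlapped.

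Across the 12 group means of the log2 values, Pearson's r of oryzain gamma was 0.84 with VPE2, 0.81 with oryzain alpha, and -0.93 with VPE1. Oryzain beta had an r of -0.81 with VPE3 and of 0.295 with oryzain gamma. The 12 groups share their time points and libraries, and these values are descriptions. Among all genes tested outside the members, the 2 most similar to each member were found in the same way. A name was given by the tables for 1 of these, SUT1 (OS03G0170900), encoding a sucrose transporter, which was the second for VPE2 with an r of 0.965 over the 12 groups.

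Outside the members, only 3 named genes of papain-like and aspartic proteases were looked up, and these were hardly detected. The other genes of these families were not surveyed. SAG12 (OS01G0907600), whose relative in Arabidopsis is a marker of leaf senescence, had at most 0.165 CPM, or 2 reads, and no read in 34 of 36 libraries. CP1 (OS04G0670500), a cysteine protease gene close to oryzain beta with 1 gene between them in the RefSeq order, had 1 read in 1 library, whereas oryzain beta had 62 to 956 reads. The aspartic protease gene ASP1 (OS11G0184800) had at most 0.707 CPM, or 7 reads. These 3 genes did not pass the filter.

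Cystatins are small proteins that bind papain-like proteases and block them. Of 9 oryzacystatin genes with a name, 6 passed the filter, and the F-test over time called 3 of them in FL (78.9% of all genes) and 4 in SL (77.8%), 2 of them in both leaves. Of 4 oryzacystatin genes chosen by identifier without the table of synonyms, all passed the filter, and 2 were called in FL and 2 in SL. OC-II rose by 1.34 in FL (SE 0.15, adjusted p = 2.25e-08) and by 1.24 in SL (SE 0.15, adjusted p = 8.31e-08) on average over the later time points. OC-I, at 71.6 to 166 CPM, was called over time in SL (adjusted p = 0.000302) and not in FL (adjusted p = 0.0708). The average difference of OC-I was -0.30 for FL minus SL (SE 0.06, adjusted p = 0.000151).

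OC-VIII, found by synonym, had median values of 8.14 CPM in FL and 12.9 CPM in SL at 4 DAH, and 21.05 CPM in FL and 7.61 CPM in SL at 20 DAH. It rose in FL by 0.71 on average over the later time points (SE 0.22, adjusted p = 0.00833) and fell by 0.61 in SL (SE 0.22, adjusted p = 0.0209). Without replicate 1 or 2 of all groups, neither change was called (adjusted p = 0.0843 and 0.0928 for FL, 0.0857 and 0.102 for SL). The interaction of leaf and time had an adjusted p of 0.00396, and was not called without replicate 1 (adjusted p = 0.112) or replicate 2 (adjusted p = 0.149) of all groups. Its F-test in SL (adjusted p = 0.0433) was not called with the replicate number as a block (adjusted p = 0.0597). For the 6 cystatin genes the median change was 0.34 in FL, and -0.14 in SL, where the medians of all genes were 0.011 and 0.016. Quantile normalization keeps the medians of all genes near 0.

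Autophagy carries cytoplasm and parts of chloroplasts into the vacuole, where such proteases act. All 8 autophagy genes with a name were tested, and the F-test over time called 7 in FL (78.9% of all genes) and 7 in SL (77.8%), 6 of them in both leaves, which is near the background. Among 3 of these that were chosen by identifier without the synonyms, it called 2 in FL and 2 in SL. ATG12, a protein joined to ATG5 in the making of autophagosomes, rose by 0.44 in FL (SE 0.10, adjusted p = 0.000723) and by 0.42 in SL (SE 0.10, adjusted p = 0.00103) on average over the later time points. The rise did not last to 44 DAH. At 4, 20, and 44 DAH, the mean of ATG12 was 8.29, 15.1, and 6.70 CPM in FL, and 6.09, 8.63, and 6.18 CPM in SL. ATG8A, a protein of the autophagosome membrane, rose in SL by 0.50 (SE 0.12, adjusted p = 0.00124), and its value in FL was 0.13 (adjusted p = 0.396).

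ATG4A, a protease that trims ATG8, fell by 0.50 in FL (SE 0.08, adjusted p = 1.03e-05), and its value in SL was -0.09 (adjusted p = 0.353). Its interaction of leaf and time had an adjusted p of 0.0511 and was called under 5 alternatives, from 0.0489 without a filter to 0.00924 without 36 DAH. ATG8D fell by 0.26 in FL (SE 0.09, adjusted p = 0.0132) and by 0.26 in SL (SE 0.09, adjusted p = 0.0139), and neither change was called without replicate 1 (adjusted p = 0.0623 in FL and 0.0732 in SL). Averaged over the later time points, 1 of the 8 autophagy genes was higher and 5 were lower in FL, where 50.7% of all genes were called. In SL, 3 were higher and 1 was lower, where 51.3% were called. For the 8 autophagy genes the median change was -0.24 in FL, and 0.017 in SL.

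**Figure D5:**
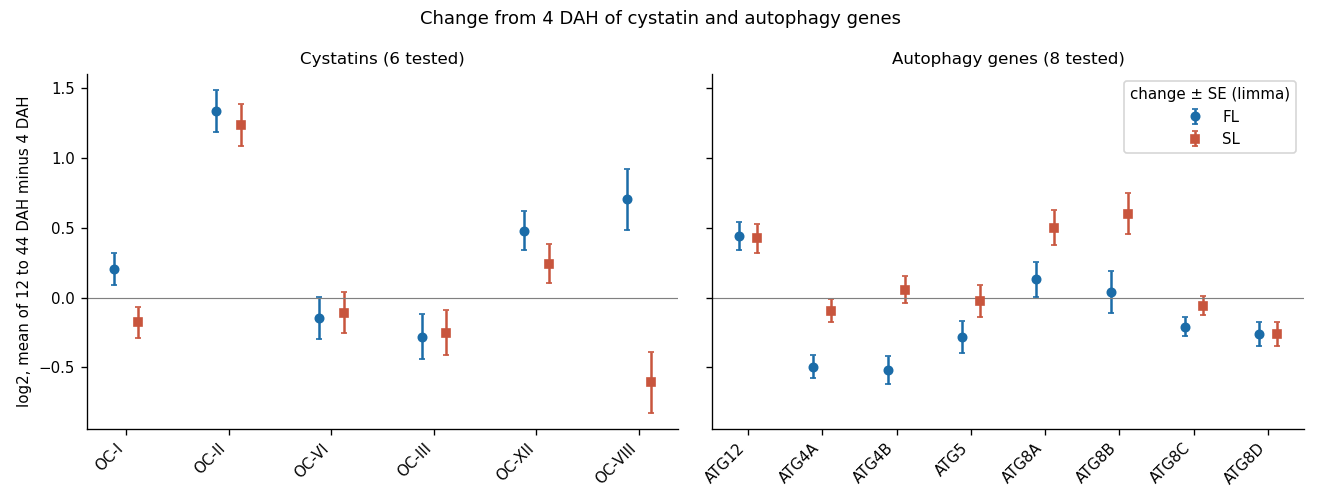
Mean log2 change of the 5 later time points from 4 DAH (vertical axis) for the 6 cystatin and 8 autophagy genes tested, in FL (circles) and SL (squares), with bars of 1 SE from limma. OC-II is at 1.34 in FL and 1.24 in SL, and OC-VIII is on opposite sides of 0, at 0.71 in FL and -0.61 in SL.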

How the data were processed

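The authors trimmed reads with cutadapt 1.2.1, aligned them with TopHat2 2.0.10 to IRGSP-1.0, counted them with HTSeq 0.6.1, and deposited one table of signal values, CPM scaled by edgeR's TMM, for 36 libraries. Up to 10 alignments of a read were kept, and how reads shared by related genes were counted is not given in the sources used here. Groups followed the labels, and whole reads were recovered from each column (tolerance 0.01 reads). In R 4.3.3, limma 3.58.1 with trend was fitted in 12 groups to quantile-normalized log2(CPM + 1) of the 22057 genes that reached 1 on this scale in 3 libraries. The pseudocount understates changes of low genes. Adjustment was by Benjamini-Hochberg within each contrast. Alternatives were edgeR 4.0.16 on recovered reads (TMM or RLE), a pseudocount of 0.1, no filter, a stricter filter, no quantile normalization, libraries left out, a replicate block, and the study's own criteria (Python 3.11.15, SciPy 1.17.1). The fits were tested on simulated data. Depth was 5713546 to 29789199 reads, and the floor of 3 reads covers counting error only.

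The members and lists were chosen with earlier results of these data known. Named were all members, the 2 genes most similar to each where a table gives a name, OC-I and OC-II, and from each list up to 2 genes per direction of largest mean change among those called over time in both leaves. SAG12, CP1, ASP1, and markers were added. The lists held identifiers, and genes were added by synonym, once the files were open, from the RefSeq table of ASM3414082v1, a different assembly, which matched 23729 identifiers and all 7 members. An autophagy gene and a green leaf marker without a name in any table were left out. No coordinates or sequences are given.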

Additional observations from a re-analysis of the deposited data

Results flagged for a closer look

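For 4 genes, the change over time differed between FL and SL by the limma test of the interaction of leaf and time. VPE2 had an adjusted p of 0.000344, and this call held when any replicate of all groups was left out. Oryzain gamma had an adjusted p of 0.014, and was not called without replicate 2 (adjusted p = 0.269) or replicate 3 (adjusted p = 0.151). VPE1 had an adjusted p of 0.0303, and was not called without replicate 1 (adjusted p = 0.202), replicate 2 (adjusted p = 0.303), or replicate 3 (adjusted p = 0.182). The cystatin gene OC-VIII had an adjusted p of 0.00396, with a rise in FL and a fall in SL. It was not called without replicate 1 (adjusted p = 0.112) or replicate 2 (adjusted p = 0.149), where the rise and the fall were not called either.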

How the results depend on the processing

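Of 3490 values of single genes under 14 alternatives, 3282 kept direction and side of the threshold, 130 lost the call, 39 gained it, and 39 changed sign, none of them called. The study's criteria for a leaf difference are a log2 difference of at least 0.58 and p below 0.05 at 1 or more time points. With the difference taken from smoothed profiles, a choice made here, 2 members differed, beside 15.3% of all 38026 genes with or without reads. This is another measure than limma's average over time points (5 members, beside 48.8% of all genes tested). With libraries left out, calls at a time point numbered 10 to 18 of 42 (17 with all), interactions 1 to 4 (3), and steps 14 to 22 (23), and fewer libraries entered those fits. Leaving out replicate 1 of SL or replicate 3 of FL at 28 DAH, or the 20 DAH libraries of replicate 2, was chosen after seeing the data. The VPE1 interaction was not called without quantile normalization (adjusted p = 0.253) or with edgeR (0.0962 TMM, 0.0584 RLE). Oryzasin over time in SL was not called without 36 DAH (0.179) and had 0.32 and 0.0566 without replicates 1 and 3, and the VPE3 difference at 20 DAH was lost under 9 alternatives. Of 252 values with the replicate number as a block, 248 kept their call and direction and the exceptions are given above. Same-numbered FL and SL libraries deviated together with a mean correlation of 0.173 (-0.118 to 0.605, over 0.1 in 11 of 18 pairs). The -0.0888 for other numbers largely follows from this, because deviations from a group mean cancel within the group. Of the 18 FL libraries, 10 matched their own number best among the 3 SL libraries of the day, a hint of pairing from the data. Not every pair was over 0.1 and no label pairs them, so the main design has no block. The block joined FL and SL of a day and number for leaf differences, and a number over time within a leaf for other contrasts, where same-numbered libraries correlated by 0.00416 on average. Oryzain beta had as few as 62 reads. Its median SD within a group was 0.13 on the log2 scale, where the members ran from 0.075 (VPE1) to 0.167 (VPE2). Its largest SD was 0.693, in SL at 28 DAH. The part of the read count in its precision was not tested.

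These uncalled values changed sign. Without quantile normalization, FL minus SL at 4 DAH was 0.019 (VPE1), 0.071 (VPE2), and 0.12 (oryzasin), the VPE1 step to 36 DAH -0.012, and oryzasin in FL -0.034 at 20 DAH and -0.016 over later days. With edgeR (TMM, RLE), FL minus SL at 4 DAH was 0.0024 (VPE1, TMM), 0.051 and 0.031 (VPE2), and 0.10 and 0.085 (oryzasin), and oryzasin in FL -0.021 at 20 DAH (TMM) and 0.038 at 44 DAH (RLE). Without the 20 DAH libraries of replicate 2, the oryzain beta step to 28 DAH was -0.070 and oryzasin in FL at 20 DAH -0.0037, and without 36 DAH oryzasin in FL over later days was -0.011. With replicates left out, oryzain alpha ran from -0.20 to 0.034 in the step to 36 DAH. Oryzain beta ran from -0.24 to 0.37 between leaves at 28 DAH and from -0.23 to 0.25 in the step to 28 DAH. The oryzain gamma interaction ran from -0.17 to 0.46 at 20, -0.093 to 0.51 at 28, and -0.0046 to 0.66 at 36 DAH. In FL at 12 DAH, VPE1 ran from -0.025 to 0.11, VPE2 from -0.046 to 0.16, and oryzasin from -0.045 to 0.12, and the VPE2 interaction at 36 DAH from -0.61 to 0.077. Oryzasin ran from -0.090 to 0.022 between leaves at 4 DAH, -0.013 to 0.075 at 20 and -0.10 to 0.088 at 44 DAH in FL, and -0.06425 to 0.016 and -0.13 to 0.072 in the steps to 20 and 28 DAH. The ATG4A mean leaf difference ran from -0.049 to 0.017.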
